A study of Mus musculus with 2 samples.

Results

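The genes described here encode the calcium pumps and sodium-calcium exchangers that clear calcium from the cytoplasm of cortical cells. They were taken by name and number 9 of 55450 annotated genes, of which 21951 are protein-coding: the endoplasmic reticulum pump Atp2a2, the plasma membrane pumps Atp2b1, Atp2b2, Atp2b3 and Atp2b4, the sodium-calcium exchangers Slc8a1, Slc8a2 and Slc8a3, and the potassium-dependent exchanger Slc24a2. Each member matched exactly 1 gene record in every table, and together they carry 57 annotated transcripts.

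Total RNA was sequenced from left cerebral cortex. The donors were male mice of B6CASTF1/J, a hybrid of C57BL/6J and CAST/EiJ parents, at an age of 10 days. The animals came from The Jackson Laboratory, carried no further allele or treatment that the labels name, and formed a single group of 2 libraries, replicate 1 and replicate 2. An input of 300 ng RNA with ERCC spike-ins (synthetic control RNAs) went into each library. The labels number 2 animals but give them 1 donor identifier, so the SD below (n = 2) measures the spread of these libraries, which may be technical. The libraries stood apart in markers of choroid plexus, striatum and blood, whose values are given with the other markers, so each member is given per library. With no second group there was no test and no p-value. The libraries held 31254528 and 30218308 expected counts (reads shared out over transcripts by a model). Levels are TPM, which divides counts by transcript length and scales each library to the same sum. They come from the gene tables of a first quantification, and a second quantification made separately from the reads is set beside them where it differs.

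Neurons keep resting cytoplasmic calcium very low, and each spike lets calcium in. P-type pumps spend ATP to remove it: the reticulum pump SERCA refills internal stores, and the plasma membrane pumps (PMCA), activated by calmodulin bound to their tail, export it at high affinity. Sodium-calcium exchangers (NCX) and potassium-dependent exchangers (NCKX) use the sodium gradient and move more calcium per unit time at lower affinity. PMCA genes are spliced at a site A in an intracellular loop and at a site C in the tail, where skipping the exon gives the b forms, which end in a PDZ-binding motif, and including it gives the shorter a forms. NCX genes are spliced in the large intracellular loop.

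The site C exons are shown because the 4 plasma membrane pumps differed widely in its use. They lie on mm10 at chr10:99019278-99019431 (Atp2b1, plus strand), chr6:113755217-113755388 (Atp2b2, minus strand), chrX:73559864-73560017 (Atp2b3, plus strand) and chr1:133711642-133711822 (Atp2b4, minus strand). Capitals mark those of the first 24 bases that are identical in all 4 genes, which are 14.
Atp2b1 site C exon: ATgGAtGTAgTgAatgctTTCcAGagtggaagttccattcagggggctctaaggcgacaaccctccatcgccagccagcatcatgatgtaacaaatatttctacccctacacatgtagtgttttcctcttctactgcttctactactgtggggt
Atp2b2 site C exon: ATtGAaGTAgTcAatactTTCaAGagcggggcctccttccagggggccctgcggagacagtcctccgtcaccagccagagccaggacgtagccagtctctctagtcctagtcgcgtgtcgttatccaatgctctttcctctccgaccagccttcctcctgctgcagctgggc
Atp2b3 site C exon: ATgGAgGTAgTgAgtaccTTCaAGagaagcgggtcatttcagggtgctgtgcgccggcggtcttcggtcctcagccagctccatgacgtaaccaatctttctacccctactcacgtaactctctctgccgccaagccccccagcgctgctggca
Atp2b4 site C exon: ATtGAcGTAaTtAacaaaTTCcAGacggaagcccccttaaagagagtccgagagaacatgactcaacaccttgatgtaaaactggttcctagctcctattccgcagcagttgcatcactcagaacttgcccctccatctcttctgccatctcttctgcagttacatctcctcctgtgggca

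Their lengths are 154, 172, 154 and 181 bases. Each leaves a remainder of 1 after division by 3, so inclusion at these lengths shifts the reading frame of what follows. Other annotated versions, which also count as inclusion below, have 87 bases in Atp2b1, a multiple of 3, and 191 bases in Atp2b4. Over the whole exon, Atp2b2 and Atp2b3 were the most alike at 65.9% identical aligned positions, and Atp2b3 and Atp2b4 the least at 50.8%.

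The site A exons of Atp2b2 are shown because this gene alone has annotated full-length transcripts both with and without them. They lie on the minus strand at chr6:113803747-113803779, chr6:113802486-113802545 and chr6:113797110-113797151. The exon of Atp2b3 at chrX:73533885-73533926 (plus strand) has the same length as the last of them, and capitals mark the 27 of 42 positions identical between this pair.
Atp2b2 site A, 33-base exon: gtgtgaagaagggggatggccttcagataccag
Atp2b2 site A, 60-base exon: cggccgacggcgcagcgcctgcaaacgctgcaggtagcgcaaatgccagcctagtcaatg
Atp2b2 site A, 42-base exon: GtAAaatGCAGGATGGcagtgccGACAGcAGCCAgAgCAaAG
Atp2b3 site A, 42-base exon: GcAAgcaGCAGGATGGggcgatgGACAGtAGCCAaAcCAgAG

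The 3 Slc8 genes each have a very short exon of 18 bases in the loop region, annotated as a cassette in Slc8a2 and Slc8a3 and as always included in Slc8a1. It lies at chr17:81441773-81441790 in Slc8a1 (minus strand), chr7:16150574-16150591 in Slc8a2 (plus strand) and chr12:81209454-81209471 in Slc8a3 (minus strand). Capitals mark the 3 of 18 positions identical in all of them.
Slc8a1 18-base exon: gtggctTcacattaacAG
Slc8a2 18-base exon: ctctgcTactcaaccaAG
Slc8a3 18-base exon: cgctccTgttatctccAG

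All 9 members were detected, that is, at 1 TPM or more in both libraries, against 59.7% of all protein-coding genes. In the second quantification 9 of 9 were detected, against 63.7%. Of the 9, 6 had a mean above 100 TPM over all transcripts of the gene, a level that 4.43% of protein-coding genes reached. In bulk tissue, fewer cells of a type and less RNA per cell cannot be told apart, so these are levels of the tissue and not of any cell type.

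The reticulum pump Atp2a2 (ENSMUSG00000029467.15, chr5:122453513-122502225, minus strand), which encodes SERCA2, stood at 294.79 TPM in replicate 1 and 282.21 TPM in replicate 2, or 288.5 ± 8.90 (SD, n = 2). It ranked 196 of 21951 protein-coding genes and rested on 30426.5 and 27892.1 expected counts. Its counts are not whole, so some reads were shared out between this gene and another record.

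Among plasma membrane pumps, Atp2b1 (ENSMUSG00000019943.10, chr10:98914406-99026143, plus strand), the PMCA gene found in nearly all tissues, had the highest gene level, at 307.36 and 289.09 TPM (298.2 ± 12.9). Atp2b2 (ENSMUSG00000030302.16, chr6:113743831-114042613, minus strand), the gene for a fast pump known from Purkinje cells and hair cells, stood at 208.78 and 197.41 TPM (203.1 ± 8.04). Both were somewhat higher in replicate 1. Atp2b4 (ENSMUSG00000026463.17, chr1:133699457-133801041, minus strand), another widely expressed pump gene, went the other way, with 119.96 and 131.10 TPM (125.5 ± 7.88). Atp2b3 (ENSMUSG00000031376.15, chrX:73503086-73571005, plus strand), a pump gene largely of neurons, was the lowest of the family at 29.93 and 31.65 TPM (30.8 ± 1.22). Of the summed Atp2b TPM, 45.3 ± 1.15% fell on Atp2b1, 30.9 ± 0.67% on Atp2b2, 19.1 ± 1.54% on Atp2b4 and 4.68 ± 0.27% on Atp2b3.

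Among sodium-calcium exchangers, Slc8a2 (ENSMUSG00000030376.8, chr7:16129826-16161063, plus strand), the brain exchanger NCX2, stood at 132.93 and 136.03 TPM (134.5 ± 2.19). Slc8a1 (ENSMUSG00000054640.15, chr17:81373105-81738377, minus strand), which encodes NCX1, the exchanger best known from heart, was at 134.73 and 132.60 TPM (133.7 ± 1.51). The libraries of these genes overlapped, and the ratio of Slc8a1 to Slc8a2 was 0.994 ± 0.027. In the second quantification they did not overlap, and the ratio was 0.938 ± 0.014. Slc8a3 (ENSMUSG00000079055.10, chr12:81197915-81333180, minus strand), the NCX3 gene of brain and skeletal muscle, was the lowest member of all at 18.96 and 16.94 TPM (17.95 ± 1.43). Slc24a2 (ENSMUSG00000037996.17, chr4:86983124-87230477, minus strand), which encodes the neuronal NCKX2, lay between at 56.34 and 53.39 TPM (54.9 ± 2.09). In the second quantification Slc8a3 stood at 45.16 and 36.18 TPM (40.7 ± 6.35). There it overlapped Atp2b3, at 43.24 and 45.89 TPM (44.6 ± 1.87), so its place as the lowest member held in the first quantification only. Summed Slc8 TPM exceeded Slc24a2 by 5.22 ± 0.18 times, and summed Atp2b TPM exceeded summed Slc8 TPM by 2.30 ± 0.036 times.

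Ordered by gene TPM, the members ran Atp2b1, Atp2a2, Atp2b2, Slc8a2, Slc8a1, Atp2b4, Slc24a2, Atp2b3 and Slc8a3. A pair was said to differ where the libraries did not overlap and the gap of the means exceeded the sum of their SDs, which held for 32 of 36 pairs and 5 of 8 neighbours. Atp2b1 and Atp2a2 did not differ by this rule, nor did Slc8a2, Slc8a1 and Atp2b4 among themselves. The second quantification gave the same order, and 34 of 36 pairs differed. There Atp2b1 (472.3 ± 12.8 TPM) differed from Atp2a2 (412.5 ± 14.2), and Slc8a2 (195.4 ± 2.70) from Slc8a1 (183.2 ± 0.14) and Atp2b4 (170.6 ± 12.7). Slc8a1 and Atp2b4 still did not differ, nor did Atp2b3 and Slc8a3.

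This order depended on which transcripts were counted. Atp2b1 has 11 annotated transcripts, of which 1, Atp2b1-201 (7130 bases, 1220 residues), holds at least 80% of the longest coding length of its gene, here called full coding. It took 125.07 and 116.56 TPM, or 40.5 ± 0.26% of the gene. The remaining 59.5 ± 0.26% of TPM lay on shorter models that held 22.4 ± 0.073% of the gene's expected counts. Across 13113 detected protein-coding genes the median share of TPM in such transcripts was 20.7% (quartiles 4.62% and 43.5%), and 13.4% of these genes had a share as high as that of Atp2b1.

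The 3 largest short models of Atp2b1 covered its ends. Atp2b1-210 (1460 bases, 278 residues), a model of the tail that includes the site C exon, took 26.0 ± 0.32% of the gene's TPM. Atp2b1-208 (1588 bases, 430 residues) took 17.8 ± 0.40% and Atp2b1-207 (1249 bases, 212 residues) 6.43 ± 0.31%. In the second quantification Atp2b1-207 took 13.0 ± 0.65% and Atp2b1-208 13.0 ± 0.69%, while Atp2b1-201 took 38.0 ± 1.24%.

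Slc8a1 showed a like division. Its transcript Slc8a1-205 (2017 bases, 2 exons, 599 residues), whose coding sequence of 1799 bases lies in the large exon that opens the Slc8a1 coding sequence, took 41.7 ± 2.97% of TPM on 9.91 ± 0.45% of counts. A share that high was found in 26.4% of detected protein-coding genes. The long transcript Slc8a1-204 (18464 bases, 958 residues) took 36.1 ± 1.49% of TPM on 18853.7 and 16798.7 expected counts. Per kilobase of effective length, Slc8a1-205 held 1212 and 1035 counts and Slc8a1-204 held 1027 and 915. As background, the same exon is known as the source of an abundant circular RNA, and junction reads of circular RNA were not analysed here.

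Short models also held 26.3 ± 0.26% of the TPM of Slc24a2, 23.3 ± 0.26% of Atp2b4, 11.0 ± 3.18% of Slc8a3, 5.36 ± 0.54% of Atp2b2 and 1.65 ± 0.079% of Atp2a2. In Atp2b4 nearly all of it was Atp2b4-204, a non-coding model of 588 bases with 275 and 283 counts, which took 22.6 ± 0.34% of TPM. In Slc24a2 the larger ones were the non-coding Slc24a2-209, at 10.5 ± 2.68% (4.03 ± 1.05% in the second quantification), and the partial Slc24a2-208 (168 residues), at 8.24 ± 2.01% (9.95 ± 5.95%). Atp2b3 and Slc8a2 had full coding transcripts only. The quantifications differed most for Slc8a3 and Atp2b2, whose full coding transcripts held 53.1 ± 8.91% and 85.03 ± 3.56% of TPM in the second against 88.96% and 94.6% in the first.

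**Figure D1:**
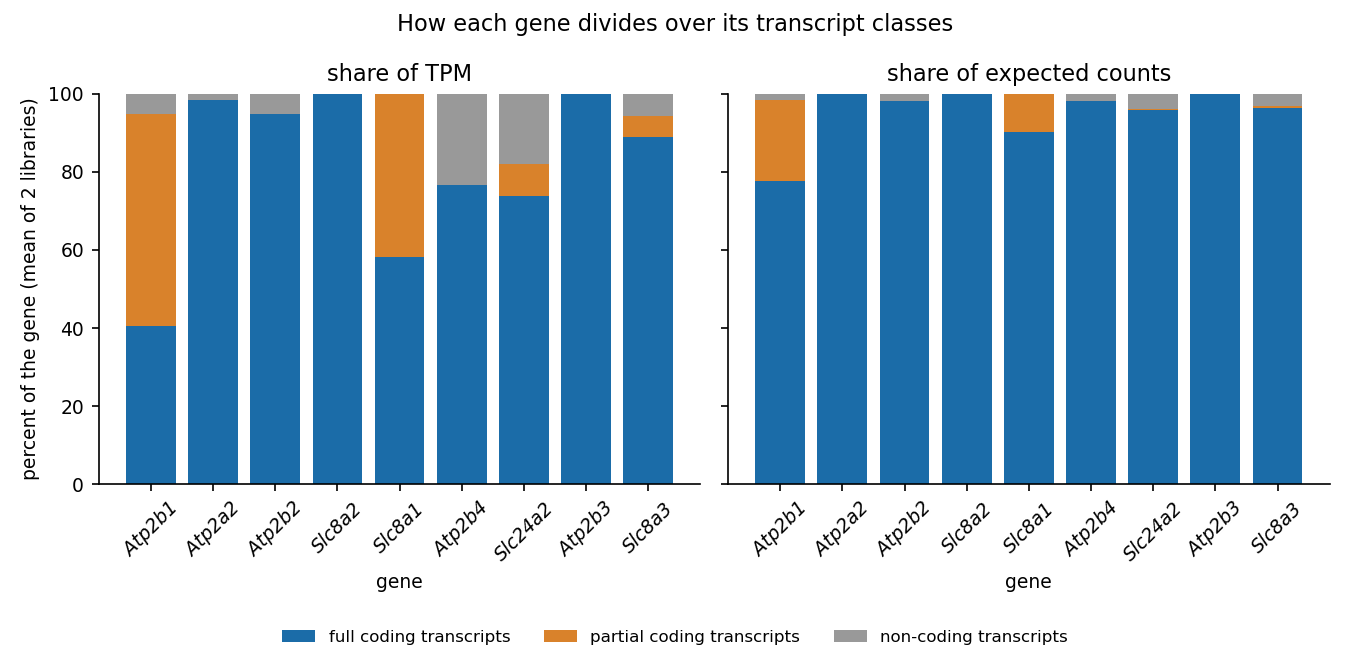
Share of each gene's TPM (left) and of its expected counts (right), in percent and as the mean of 2 libraries, held by full coding, partial coding and non-coding transcripts of the first quantification. In Atp2b1 the short models held 59.5% of TPM but 22.4% of counts, and in Slc8a1 41.7% of TPM but 9.91% of counts.

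On full coding TPM the order became Atp2a2, Atp2b2, Slc8a2, Atp2b1, Atp2b4, Slc8a1, Slc24a2, Atp2b3 and Slc8a3, and all 36 pairs differed by the rule above. Atp2b2 was then above Atp2b1, at 198.38 and 186.07 TPM (192.2 ± 8.70) against 120.8 ± 6.02. The ratio of Atp2b1 to Atp2b2 was 1.47 ± 0.0055 on gene TPM and 0.628 ± 0.0028 on full coding TPM, so its direction reversed. The full coding class held no Atp2b1 form with the site C exon, since Atp2b1-201 skips it. The partial Atp2b1-210, which includes the exon, was left out at 80.56 and 74.48 TPM. Atp2b2-206, the Atp2b2 form with the exon, was kept at 22.02 and 25.19 TPM. The reversed ratio, like every full coding level of Atp2b1, therefore leaves out such forms of Atp2b1. By counts per length of the longest coding transcript the ratio was 0.952. Slc8a1 moved from level with Slc8a2 to 75.67 and 80.05 TPM (77.9 ± 3.10), or 0.579 ± 0.014 times Slc8a2. Atp2a2 moved from 0.968 ± 0.012 to 2.35 ± 0.047 times Atp2b1. The full coding class takes in transcripts labelled as targets of nonsense-mediated decay, and Atp2a2-203, at 192.92 and 182.21 TPM, is one. Those of Atp2a2 labelled protein-coding were lower, with Atp2a2-201 at 55.3 and 52.77 TPM and Atp2a2-202 at 41.55 and 42.74. The place of Atp2a2 above Atp2b1 on full coding TPM therefore rested on Atp2a2-203. Shares of the Atp2b family on full coding TPM were 43.7 ± 1.27% for Atp2b2, 27.4 ± 0.92% for Atp2b1, 21.9 ± 1.80% for Atp2b4, with the remainder on Atp2b3. Shares of the Slc8 family were 58.9 ± 0.22% for Slc8a2, 34.1 ± 0.67% for Slc8a1 and 6.99 ± 0.45% for Slc8a3.

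**Figure D2:**
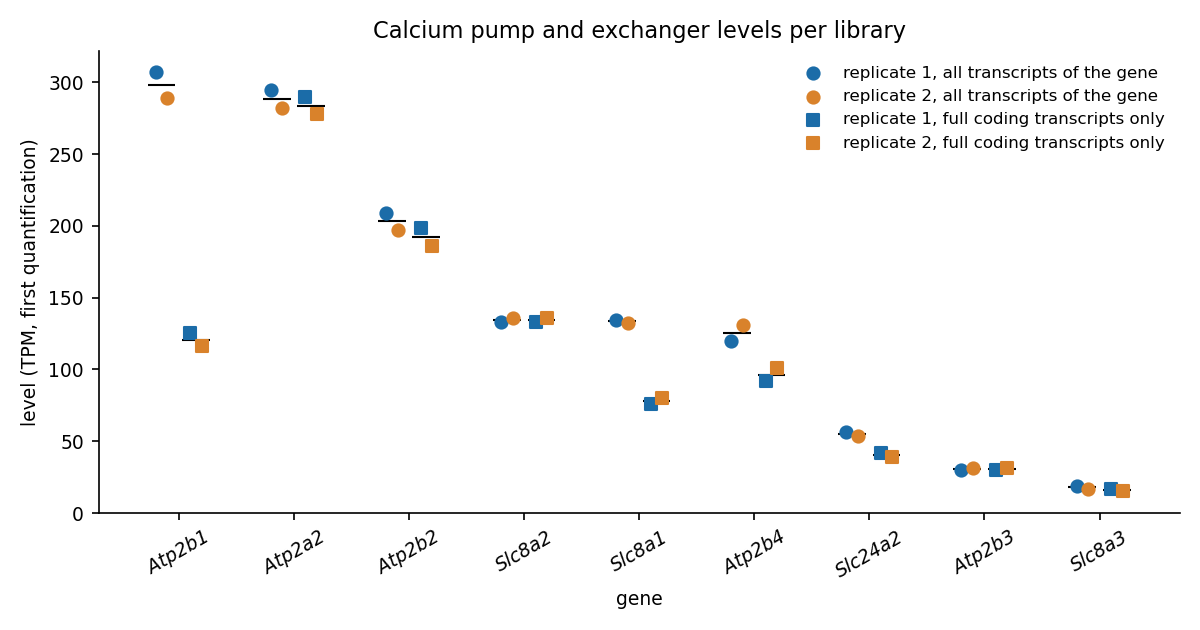
Level of each member in TPM (y axis) in replicate 1 and replicate 2, over all transcripts of the gene (circles) and over full coding transcripts only (squares), with a bar at the mean of the 2 libraries. Atp2b1 falls from 298.2 to 120.8 TPM and Slc8a1 from 133.7 to 77.9 TPM, while Atp2a2, Atp2b2, Slc8a2 and Atp2b3 stay close to their gene level.

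The 4 plasma membrane pump genes used the site C exon to very different degrees. Its share was taken as the TPM of transcripts that include it over all that include or skip it. In Atp2b4 it was 78.1% in replicate 1 and 84.7% in replicate 2 (81.4 ± 4.68), and in Atp2b3 it was 73.2% and 76.7% (74.9 ± 2.54). In Atp2b1 it was 41.2% and 41.1% (41.1 ± 0.090). In Atp2b2 it was 11.1% and 13.5% (12.3 ± 1.72) over all transcripts, and 0 among those labelled protein-coding, since the annotated transcript with the exon, Atp2b2-206, is labelled as a target of nonsense-mediated decay. Atp2b4 and Atp2b3 did not differ beyond their SDs, and the other neighbours in this order did. The second quantification gave 76.9 ± 4.70% for Atp2b4, 71.2 ± 2.94% for Atp2b3, 41.5 ± 0.36% for Atp2b1 and 14.2 ± 2.29% for Atp2b2, which is the same order.

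Site C changes the pump's tail, as the coding bases in the last coding exon show for most forms. Without the exon this was 309 bases in Atp2b1-201 and in Atp2b2-201, 318 in Atp2b3-202 and 303 in Atp2b4-206 and Atp2b4-207. With the exon it was 23 bases in Atp2b1-210, Atp2b3-203 and Atp2b4-203. It was 186 in Atp2b4-201 and, with an 87-base version of the exon, 309 in Atp2b1-209, the same as in Atp2b1-201. It was 5 in Atp2b2-206, which also holds a further exon of 127 bases downstream (chr6:113751564-113751690), so its tail differs from that of Atp2b2-201 by more than site C. The proteins with the exon had 1173 residues (Atp2b3-203), 1172 (Atp2b4-203) and 1154 (Atp2b2-206), against 1220 (Atp2b3-202), 1205 (Atp2b4-206) and 1198 (Atp2b2-201) without it. In Atp2b1 the transcripts that include the exon, Atp2b1-210 and the minor Atp2b1-209 with an 87-base version of it, are partial models, so the 41.1% compares partial models with a full one.

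By transcript, Atp2b3-203 with the exon led its gene at 63.1 ± 0.94% of TPM, followed by Atp2b3-202 at 21.2 ± 3.17%. Atp2b3-201 (1144 residues), which ends elsewhere and says nothing about site C, took 12.8% and 18.6%. Atp2b4-201 (1166 residues), in which the reading frame ends inside a longer version of the exon, led its gene at 44.1 ± 0.57%, followed by Atp2b4-203 at 18.4 ± 3.23%. Atp2b4-207, which skips the exon, took 12.2% in replicate 1 and 6.72% in replicate 2, and Atp2b4-206 took 4.79 ± 0.32%. The libraries therefore differed more in Atp2b4-207 than in the other forms of this gene that the text names.

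At site A, Atp2b2-202 (1243 residues) carried the exons of 33, 60 and 42 bases, and every other full coding transcript of Atp2b2 lacked all of them. Its share among protein-coding transcripts was 13.3% in replicate 1 and 16.5% in replicate 2 (14.9 ± 2.28), and 23.99 ± 2.48% in the second quantification. The transcripts without them that led the gene, Atp2b2-201 and Atp2b2-203 (both 1198 residues), took 37.6 ± 2.87% and 33.01 ± 0.71% of TPM. The quantifications disagreed on Atp2b2-203, which took 17.4 ± 0.53% in the second, and on Atp2b2-207, a non-coding model of 659 bases with 0.30 ± 0.061% in the first and 10.1 ± 3.09% in the second. In Atp2b1, Atp2b3 and Atp2b4 the exon at this position, of 39, 42 and 36 bases, was in the annotated full coding transcripts that span it, so no skipping could be measured.

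Atp2a2 ended mostly in its long tail. This form of 1044 residues, SERCA2b, is the one of most tissues, while the form of 998 residues, SERCA2a, is typical of heart and slow muscle. The transcripts Atp2a2-201 and Atp2a2-203 encode the long form and Atp2a2-202 the short one. Atp2a2-203 is labelled as a target of nonsense-mediated decay, and a further exon of 792 bases follows the exon with its stop codon. It took 65.0 ± 0.62% of the gene's TPM, the largest share in both quantifications (48.9 ± 0.93% in the second). Over all full coding transcripts the long form held 85.7% and 84.6% (85.1 ± 0.74). Among transcripts labelled protein-coding it held 57.1% and 55.3% (56.2 ± 1.31). Atp2a2-202 took 14.6 ± 0.74% and Atp2a2-201 18.7 ± 0.043%.

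The exchanger genes differed in the use of their 18-base exon. In Slc8a2 the form with it, Slc8a2-202 (921 residues), and the form without it, Slc8a2-201 (915 residues), were close to equal, with the exon in 49.5% and 51.7% of TPM (50.6 ± 1.55, and 48.5 ± 2.25 in the second quantification). In Slc8a1 every annotated transcript that spans the region holds the exon. In Slc8a3 the exon was in 0 and 2.79% of TPM (1.40 ± 1.98), but in 19.4 ± 2.47% in the second quantification, so its use there depended on the quantification. Slc8a3-202 (921 residues), which skips it, took 87.6 ± 1.22% of the gene in the first and 35.9 ± 5.58% in the second, where the partial Slc8a3-204 (122 residues) took 35.3 ± 2.97% against 5.28 ± 3.97% in the first. Of the transcripts with the exon, Slc8a3-201 (927 residues) was listed at 0 in the first and took 12.1 ± 0.53% in the second, and Slc8a3-203 (928 residues) took 1.39 ± 1.96% and 5.12 ± 3.86%. The non-coding Slc8a3-205 took 10.8% and 0.71% in replicates 1 and 2. Slc8a3 had the fewest counts of the members, 1737 and 1477. The antisense gene Gm3693, at 2.78 and 2.57 TPM, overlaps it, and no source used here gives the strand setting of the counting, so reads of these genes may not be told apart.

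Further cassettes of Slc8a1 were less used. An exon of 15 bases was in 33.9% and 41.99% of the TPM of transcripts that span it (37.9 ± 5.72). Of a pair of 21-base exons, that at chr17:81441861-81441881 was in 24.1 ± 6.40% and that at chr17:81442203-81442223 in 13.8 ± 0.68%. In the second quantification the shares, in the same order, were 30.6 ± 7.44%, 17.6 ± 2.75% and 13.0 ± 4.68%. Slc8a1-204 lacks these 3 exons and alone has a last exon of 15963 bases. The shares, taken over whole transcripts, therefore do not rest on reads of the cassettes alone. Slc8a1-203 (970 residues), at 11.0% and 17.3% of the gene, holds the 15-base and the former 21-base exon. Slc8a1-202 (970 residues), at 8.03 ± 0.016% (0.66 ± 0.90% in the second quantification), holds the 15-base and the latter 21-base exon. Slc8a1-201 (970 residues) was listed at 0 in the first quantification and took 6.68 ± 3.91% in the second.

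In Slc24a2, an exon of 51 bases (chr4:87049884-87049934) was in 58.7% and 60.6% of the TPM of transcripts that span it (59.6 ± 1.36), and in 59.97 ± 4.19% in the second quantification. An exon of 186 bases (chr4:87176162-87176347) was in 41.0% and 36.5% among protein-coding transcripts (38.8 ± 3.20). Slc24a2-203 (666 residues) has the former and not the latter and led the gene at 40.6 ± 1.77%. Slc24a2-204 (711 residues) has the latter and not the former and took 28.6 ± 2.46%. All the cassettes of Slc8a1, Slc8a2 and Slc24a2 described here are multiples of 3 in length, unlike the site C exons of the pumps whose sequences are shown.

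**Figure D3:**
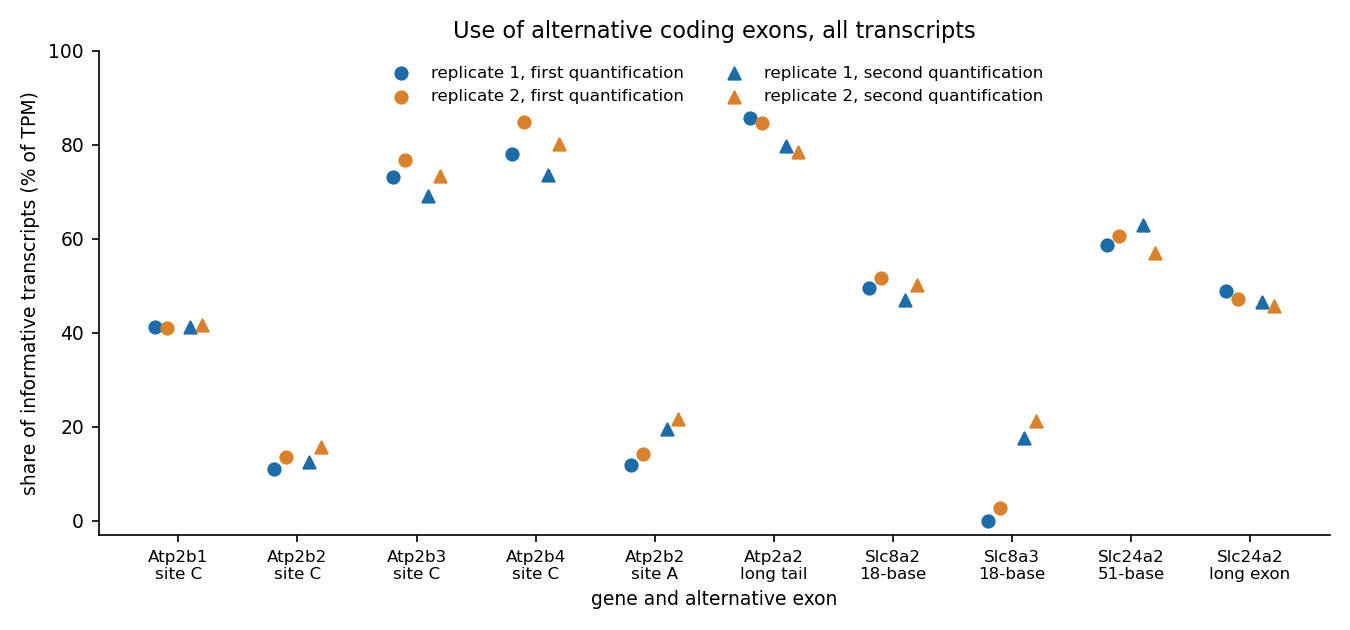
Share of informative transcripts that carry an alternative exon or tail, in percent of TPM over all transcripts of the gene, for replicate 1 and replicate 2 in the first (circles) and second (triangles) quantification. The site C exon runs from 12.3% in Atp2b2 to 81.4% in Atp2b4 (means of the first quantification), and the 18-base exon of Slc8a3 differs most between quantifications in proportion, at 1.40% and 19.4%.

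The quantifications named the same leading transcript for 7 of 9 members, against 75.8% of 12007 protein-coding genes with at least 2 transcripts, a share close to that background. The exceptions were Slc8a2, whose 2 forms were nearly equal, and Slc8a3.

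Between the libraries the members varied about as much as other genes. None of 9 passed a 1.2-fold difference, against 11.9% of 12830 genes with a mean of 100 or more expected counts. For only 9 genes this is near that background. In the second quantification 1 of 9 did, Slc8a3, at 45.2 and 36.2 TPM, against 15% of these genes, a share near that background. The log2 ratio of replicate 2 to replicate 1, on TPM with 0.1 added, ran from -0.16 (Slc8a3) to 0.13 (Atp2b4). In CPM (counts scaled to the library total) Slc8a3 was 0.879 times as high in replicate 2 (95% Clopper-Pearson interval 0.820 to 0.943) and Atp2b4 1.06 times (1.04 to 1.09), with intervals that cover counting error only. The members' median size of the log2 ratio was 0.08, and that of all tested genes 0.09. In TPM 6 of 9 members were lower in replicate 2. The share of all tested genes that were lower was not computed, so nothing is read from this count. The median log2 ratio of the members was -0.06 against 0.04 for all tested genes. Under DESeq2 size factors Slc8a2 turned from 0.03 to -0.01, and the other 8 kept their sign under each scaling tried.

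**Figure D4:**
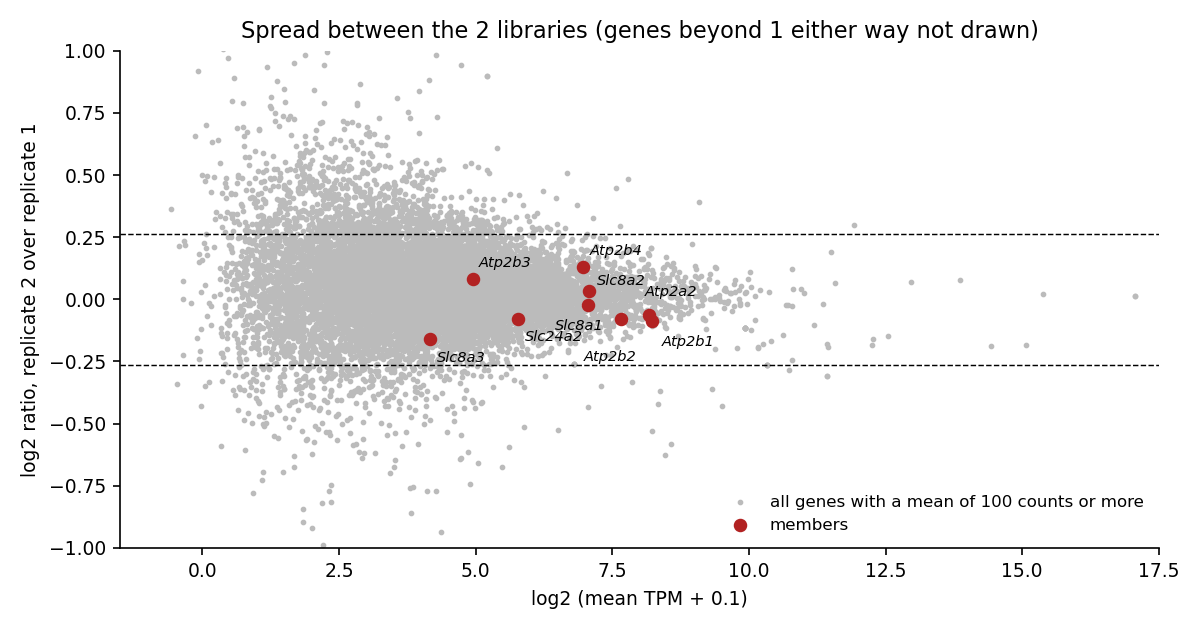
Log2 ratio of replicate 2 to replicate 1 (y axis) against log2 of mean TPM plus 0.1 (x axis) for genes with a mean of 100 or more expected counts (grey) and the 9 members (red), with dashed lines at 1.2-fold either way. All 9 members lie between the lines, from -0.16 for Slc8a3 to 0.13 for Atp2b4.

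Other calcium transport genes were taken from fixed lists with 34 of 35 names matched, and 27 were detected. Of the other pumps 2 of 4 were detected (list median 1.54 TPM): the Golgi pump Atp2c1 at 123.4 ± 0.28 TPM and the SERCA3 gene Atp2a3 at 2.71 ± 0.15. Atp2c2, the other Golgi pump gene, stood at 0.38 ± 0.014 TPM, and Atp2a1, the SERCA of fast skeletal muscle, at 0.04 ± 0.014, so of the SERCA genes Atp2a2 was far above the others. Of the other exchangers 3 of 5 were detected (median 1.76 TPM). The NCKX3 gene Slc24a3 stood at 70.3 ± 1.17 TPM, above the 54.9 ± 2.09 of Slc24a2 on gene TPM. Slc24a4 stood at 7.49 ± 0.59 TPM and Slc8b1, the mitochondrial sodium-calcium exchanger, at 1.76 ± 0.13.

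Partners of the pumps were detected in 5 of 7 matched cases (median 333.9 TPM). Calm2 and Calm3, whose product calmodulin relieves the inhibition of PMCA, were the highest of these, at 1100.5 ± 46.0 and 979.6 ± 12.8 TPM. The genes for neuroplastin and basigin, known as PMCA subunits, followed, with Nptn at 376.3 ± 5.70 TPM and Bsg at 333.9 ± 6.64, both above every member on the mean of gene TPM. Phospholamban, the SERCA inhibitor of heart, had 1.24 ± 0.28 TPM (Pln). The genes for calcium release from and refilling of the reticulum were detected in 11 of 11 cases (median 17.1 TPM), led by Ryr2 at 61.1 ± 0.86, Itpr1 at 40.8 ± 0.51 and Stim1 at 35.3 ± 1.61. Mitochondrial uptake genes were detected in 6 of 7 cases (median 37.1 TPM), led by Smdt1 at 67.0 ± 3.19, Letm1 at 54.0 ± 1.70 and Micu3 at 39.1 ± 1.70.

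The labelled tissue was checked with 13 lists of markers, of which 48 of 59 members were detected. Neuronal and astrocyte lists were high, at summed levels of 2830 and 2826 TPM and of 1066 and 1096 TPM in replicates 1 and 2, with 5 of 5 members detected in each. The oligodendrocyte lineage summed to 335 and 307 TPM, and cardiac and skeletal muscle, where SERCA2a and NCX1 are abundant, to 8.83 and 7.50 TPM. Cerebellar markers had 1 of 5 members detected, with Pcp2 at 0 in both libraries. The libraries stood apart in choroid plexus markers, at 9.07 and 311.8 TPM with 1 of 5 members detected in both libraries, in striatal markers, at 109.7 and 71.7 TPM, and in erythroid markers, at 1158 and 801 TPM. Between these libraries the members differed by less than 1.2-fold in the first quantification, and Slc8a3 by more than that in the second. The part of these lists in the member levels was not tested.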

How the data were processed

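The authors deposited 3 tables per library, on mm10 with GENCODE M21 per the deposited descriptions. Per the file headers, the gene and transcript tables of the first quantification hold expected counts, TPM and, for transcripts, their percent of the gene (IsoPct). The deposited table of the second quantification gives estimated counts and TPM for transcripts, summed here over each gene. The sources used here do not name programs, settings or strand handling.

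Scaling factors came from edgeR 4.0.16, on expected counts of genes above a count minimum, and DESeq2 1.42.0, on rounded expected counts (R 4.3.3). Neither was used for a test. Levels, shares and ratios were computed in Python 3.11.15 with pandas 2.3.3 and NumPy 2.4.6, intervals with SciPy 1.17.1 and exon alignments with Biopython 1.88. Nuclear protein-coding genes held 48.0% and 49.0% of TPM in the first quantification and 78.0% and 79.3% in the second, so absolute TPM is compared only within a quantification. Detection meant 1 TPM in both libraries. Library ratios used TPM + 0.1 and genes with a mean of 100 or more expected counts. Intervals (95%) are binomial on the counts of both libraries, so they cover counting error only. They do not allow for reads that copy the same molecule, which cannot be told apart without a molecular identifier. An exon counted as included where a transcript has an exon with its acceptor and as skipped where an intron spans it. Sequences and positions were read from the GENCODE M21 transcripts. All members are named, with transcripts at 5% or more of their gene in either quantification, the 3 highest genes of each other list, and close relatives. The members and lists were chosen with earlier results of these data known. Strit1 had no match. A further gene of the partner list is not reported here. Amino acid sequences are not shown. Alternatives were the second quantification, other scalings, pseudocounts and count limits, each library alone, transcript classes and counts per length.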

Additional observations from a re-analysis of the deposited data

How the results depend on the processing

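With the second quantification, Atp2b1 over Atp2b2 was 1.38, Slc8a1 over Slc8a2 0.938, Atp2a2 over Atp2b1 0.873, summed Atp2b over summed Slc8 2.46, Atp2a2 over summed Atp2b 0.400 and summed Slc8 over Slc24a2 5.75. It put 1 member past 1.2-fold between libraries (Slc8a3, log2 ratio -0.32), against 15% of all tested genes. It gave the long Atp2a2 tail 58.8% of protein-coding transcripts, site C 41.5% in Atp2b1 and 71.2% in Atp2b3, site A 23.99% in Atp2b2, and the 18-base exon 48.5% in Slc8a2 and 19.4% in Slc8a3. Over all transcripts of the gene in place of protein-coding ones, the long Atp2a2 tail held 85.1%, Atp2b2 site C 12.3% and the 186-base exon of Slc24a2 48.0%.

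A further 3 settings were chosen after seeing the data. On full coding transcripts only, the 6 ratios in the same order were 0.628, 0.579, 2.35, 1.93, 0.645 and 5.65, and with the second quantification 0.616, 0.524, 2.28, 2.06, 0.624 and 5.58. Taking counts per length of the longest coding transcript gave 0.952, 0.495, 1.67, 2.11, 0.628 and 4.85. The order of the means turned round for Atp2b1 over Atp2b2 and for Atp2a2 over Atp2b1 in all 3 of these, by which transcripts or length the setting uses. For Atp2b1 over Atp2b2 the value by counts per length, 0.952, was near level. On gene TPM Atp2a2 and Atp2b1 had not differed by the rule for pairs.

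From a single library, Atp2b1 over Atp2b2 was 1.46 to 1.47, Slc8a1 over Slc8a2 0.975 to 1.01, Atp2a2 over Atp2b1 0.959 to 0.976, and the number of members with the same top transcript in both quantifications 8 to 9. The number of pairs of members that differ was 32, and 33 to 36 under the other settings. It needs an SD and was not computed from 1 library. No paired analysis was possible because there is only 1 group. Depth was lowest for Slc8a3, with 1737 and 1477 counts.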
